A study of Mus musculus with 8 samples.

Results

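Interferon-stimulated genes were followed here as a set of 37 named genes, 30 of them called type I type and 7 gamma type, of 55487 gene identifiers in the tables. The rule lists them by name and uses no measured value. The type I type members are the genes best known from the response to interferon alpha and beta. The gamma type members are Irf1 and 6 inducible GTPases (Gbp2, Gbp3, Gbp7, Irgm1, Igtp and Iigp1), best known from the response to interferon gamma. Many genes answer to both kinds of interferon, so the division is a convention. All 37 symbols were found, 36 of the genes passed the filter on low values, and Oas3 did not.

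RNA was sequenced from epididymal white adipose tissue, a visceral fat depot of the male mouse, taken from 8 obese males. The 4 AKO mice (numbers 3, 8, 9 and 11) carry AP2-Cre and Slc16a1 flox/flox, and the genotype label calls them Slc16a1 -/-. The 4 WT mice (numbers 2, 3, 4 and 5) carry Slc16a1 flox/flox, with no Cre named. Both groups share the C57BL/6 strain, the floxed alleles and a high-fat diet, and the labels used here state no age. Cre is driven by the promoter of Fabp4 (aP2), a fat cell gene that macrophages are known to use as well. Effects of Cre itself and of the intended deletion cannot be told apart in this design. Slc16a1 encodes MCT1, a carrier of lactate and other monocarboxylates. Values are TPM (transcripts per 1000000, a level corrected for transcript length), summed over a gene's transcript rows. Errors are SD over 4 mice per group.

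Interferons are secreted proteins by which cells announce viruses, stray nucleic acids or inflammation. Type I interferons bind IFNAR1 and IFNAR2, and the kinases JAK1 and TYK2 then pass the signal to STAT2, which acts with IRF9 at an interferon-stimulated response element (ISRE). Interferon gamma, made mostly by T and NK cells, binds IFNGR1 and IFNGR2 and acts on genes through a gamma-activated sequence (GAS). In obese fat these genes are used by fat cells, macrophages, endothelial cells and lymphocytes alike. In a whole fat pad, fewer cells of a type and less RNA per cell cannot be told apart.

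The promoter windows of the members were searched for the elements through which the 2 kinds of interferon are known to act. Windows came from RefSeq (GRCm38.p6) and run from 250 bases before to 50 bases after a transcription start, and 28 of the 37 members had one. Mx1, Mx2, Oas2, Usp18, Dhx58, Zbp1, Iigp1, Parp14 and Rtp4 had no entry. The ISRE core searched was GAAA, any 2 bases, then GAAA, on both strands, and the GAS core was TTC, any 3 bases, then GAA, which reads the same on both strands. An ISRE core was found in 17 of 28 members, which is 60.7%, against 3.99% of all 27025 genes with an entry. A GAS core was found in 9 of 28 members, which is 32.1%, against 9.55% of all genes. By type, the ISRE core was in 12 of 22 type I type and 5 of 6 gamma type members, and the GAS core was in 6 of 22 and 3 of 6. The cores can overlap each other, 5 members had both and 7 had neither. A match describes letters in the window and does not show that a factor binds there.

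The 6 sequences below show how the members differ in these elements. Each gives the 250 bases before the start, 5′ to 3′ on the gene's strand, with ISRE and GAS cores in capitals. Isg15 (chr4:156200819-156201068, minus strand) has 3 overlapping ISRE cores, the first at base -78. Ifit1 (chr19:34640639-34640888, plus strand) has 2 ISRE cores on the opposite strand, starting at -104 and -85. Oas1a (chr5:120907526-120907775, minus strand) has a GAS core at -98 and overlapping ISRE cores at -20 and -14. Irf1 (chr11:53769764-53770013, plus strand) has a single GAS core at -90. Igtp (chr11:58199306-58199555, plus strand) has a GAS core at -45 and an ISRE core at -34. Samhd1 (chr2:157135097-157135346, minus strand) has a GAS core at -235 and no ISRE core in the window.
Isg15: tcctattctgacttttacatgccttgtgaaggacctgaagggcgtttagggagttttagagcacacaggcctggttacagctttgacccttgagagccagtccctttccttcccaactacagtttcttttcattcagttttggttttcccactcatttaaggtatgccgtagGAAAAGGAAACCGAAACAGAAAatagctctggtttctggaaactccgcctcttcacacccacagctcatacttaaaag
Ifit1: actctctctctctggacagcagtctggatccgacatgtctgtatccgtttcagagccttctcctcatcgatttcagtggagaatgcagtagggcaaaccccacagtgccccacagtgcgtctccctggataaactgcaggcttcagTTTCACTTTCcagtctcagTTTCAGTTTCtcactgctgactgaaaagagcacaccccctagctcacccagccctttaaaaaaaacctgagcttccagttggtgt
Oas1a: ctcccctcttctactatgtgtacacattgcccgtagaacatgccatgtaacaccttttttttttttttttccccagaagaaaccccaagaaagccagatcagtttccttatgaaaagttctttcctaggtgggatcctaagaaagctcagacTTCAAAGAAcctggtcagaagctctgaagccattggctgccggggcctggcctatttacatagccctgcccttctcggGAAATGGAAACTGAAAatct
Irf1: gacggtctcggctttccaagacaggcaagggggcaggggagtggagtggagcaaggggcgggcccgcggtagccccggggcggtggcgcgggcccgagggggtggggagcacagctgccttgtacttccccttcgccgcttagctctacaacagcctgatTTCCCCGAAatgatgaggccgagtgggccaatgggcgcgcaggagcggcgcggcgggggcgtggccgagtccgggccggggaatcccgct
Igtp: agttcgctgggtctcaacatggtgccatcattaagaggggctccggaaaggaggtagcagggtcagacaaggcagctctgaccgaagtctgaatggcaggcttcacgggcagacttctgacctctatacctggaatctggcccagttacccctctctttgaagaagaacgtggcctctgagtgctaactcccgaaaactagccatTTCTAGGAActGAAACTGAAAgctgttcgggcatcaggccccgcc
Samhd1: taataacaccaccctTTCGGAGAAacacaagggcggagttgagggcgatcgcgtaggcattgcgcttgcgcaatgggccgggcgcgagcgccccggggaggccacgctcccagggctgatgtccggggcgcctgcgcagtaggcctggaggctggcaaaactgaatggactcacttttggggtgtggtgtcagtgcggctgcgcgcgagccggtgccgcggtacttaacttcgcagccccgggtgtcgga

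**Figure D1:**
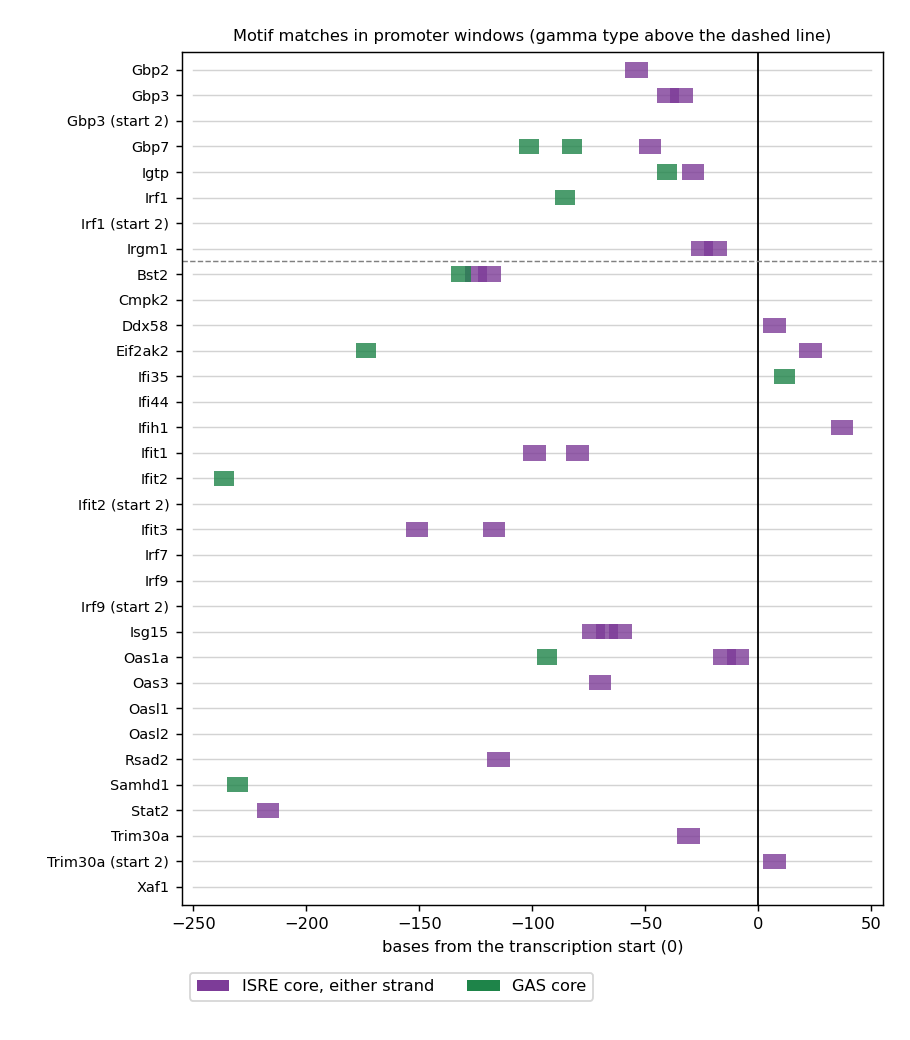
Position of ISRE cores (purple) and GAS cores (green) in the promoter windows of the 28 members with an entry, as bases from the transcription start at 0. Most ISRE cores lie before the start. Cmpk2, Ifi44, Irf7, Irf9, Oasl1, Oasl2 and Xaf1 have no match of either motif.

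Between 14143 and 14884 genes per AKO library reached 1 TPM, against 13968 to 14230 per WT library. Transcript rows above 0 numbered 66578 to 70720 in AKO and 63143 to 66466 in WT, so these ranges did not overlap. Mitochondrial genes took 6.69% to 8.403% of TPM in AKO and 7.54% to 8.99% in WT. The part of these measures in the results was not tested. Read depth cannot be recovered from TPM and stays unknown, so counting intervals are left out. Total Slc16a1 lay between 21.48 and 27.05 TPM in AKO and between 15.7 and 28.47 TPM in WT, which does not check the labels, so the groups are named by their labels. Adipoq, which defines fat cells, was at least 1864 TPM in every library.

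No member passed the threshold between AKO and WT. With limma on log2(TPM + 1), 0 of 36 members had a false discovery rate (FDR) below 0.05 over all genes, against 0.0282% of the 14172 genes tested (0.0212% higher and 0.00706% lower in AKO). The smallest FDR of a member was 0.831. At an unadjusted limma p below 0.05 there were 4 members, all higher in AKO, which is 11.1% of 36. Of all genes tested 2.58% were higher and 2.17% lower in AKO at that threshold, 4.75% in all. They were Mx1, Oasl1, Oasl2 and Samhd1, and 2 of them belong to the 2-5A synthetase family. This count rested on single mice: it was 1 without AKO mouse 3, AKO mouse 9 or WT mouse 5, 2 without AKO mouse 8 or WT mouse 4, and 6 without WT mouse 3. It was 0 of 35 when each gene was represented by its row with the highest mean. Groups did not overlap for 1 member with AKO above (Mx1), 2.78% against 1.11% of all genes, and for 0 members with AKO below, against 1.33%.

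By direction alone, 19 of 29 tested type I type members were positive and 10 negative, with a median log2 difference of 0.05. Of the 7 gamma type members, 5 were positive and 2 negative, with a median of 0.13, which was 0.036 without WT mouse 3 and 0.054 without AKO mouse 8. Over all genes tested 53.8% were positive and the median was 0.015. The 95% limma interval lay within 0.5 of 0 on the log2 scale for 23 of 36 members, and within 1 of 0 for 34. The exceptions at 1 were Mx1, with an interval from 0.23 to 1.095, and Oasl1, from 0.10 to 1.235. The lowest lower bound was -0.87, for Zbp1. A difference of more than 1 on this scale therefore lay outside the interval for every tested member but Mx1 and Oasl1. For low genes, such as Mx2 and Ifi44, a 2-fold change in TPM is less than 1 on this scale. Their lower bounds of -0.74 and -0.69 do not exclude a 2-fold drop in TPM. The interval of 13 members reached beyond 0.5, so 4 mice a group did not resolve differences of that size for them.

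**Figure D2:**
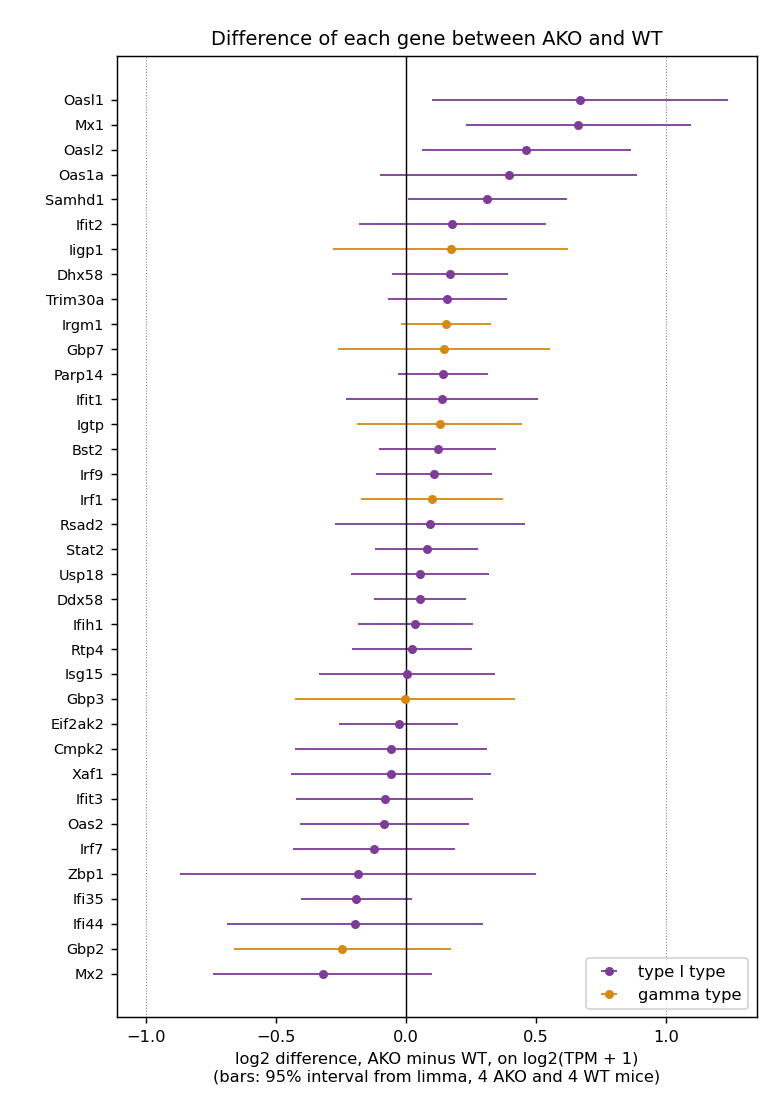
Log2 difference (AKO minus WT, on log2(TPM + 1)) of the 36 tested members with 95% limma intervals, type I type in purple and gamma type in orange, dotted lines at -1 and 1. The intervals of Mx1, Oasl1, Oasl2 and Samhd1 lie above 0, and those of the other 32 members include 0.

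Of the 6 factors and regulators that relay the signal 4 were positive and 2 negative, between -0.19 and 0.11 on the log2 scale. Stat2, the type I specific STAT protein, had 17.27 ± 1.5 TPM in AKO and 16.28 ± 1.07 in WT (log2 difference 0.08). Its partner Irf9 had 17.18 ± 1.64 TPM in AKO and 15.89 ± 1.53 in WT (0.11). Irf7, the factor that amplifies interferon alpha genes, had 18.07, 19.33, 16.48 and 16.84 TPM in AKO mice 3, 8, 9 and 11, and 21.09, 14.29, 21.87 and 21.15 TPM in WT mice 2, 3, 4 and 5. Of the 4 WT values 3 were above all AKO values and WT mouse 3 was below them all (log2 difference -0.12, SE 0.14, limma adjusted p = 0.876). Irf1, the gamma type factor with the GAS core above, had 32.1, 38.84, 32.23 and 37.82 TPM in AKO and 38.08, 29.1, 36.21 and 28.5 in WT, overlapping ranges with a log2 difference of 0.10. Usp18, a protease that removes ISG15 and damps the type I receptor, had 5.01 ± 0.338 TPM in AKO and 4.82 ± 0.768 in WT. Ifi35, which binds the factor Nmi, had 34.55 ± 2.21 TPM in AKO and 39.71 ± 4.29 in WT (log2 difference -0.19, limma adjusted p = 0.831), and 16.8% of its exons lie opposite another gene.

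Of the 4 sensors of foreign nucleic acid 3 were positive and 1 negative, and Zbp1 spread widely in WT. Ddx58 (RIG-I), a sensor of viral RNA, had 15.98 ± 1.07 TPM in AKO and 15.36 ± 0.689 in WT. Ifih1 (MDA5), which senses long double-stranded RNA, had 10.04 ± 0.93 TPM in AKO and 9.77 ± 0.822 in WT. Dhx58 (LGP2), a regulator of both, had 7.43 ± 0.763 TPM in AKO and 6.49 ± 0.396 in WT (log2 difference 0.17, limma adjusted p = 0.831). Zbp1, a sensor of Z-form nucleic acids that can start necroptosis, had 11.56, 9.5, 10.4 and 10.94 TPM in AKO and 6.43, 14.69, 10.27 and 21.83 TPM in WT. The 4 AKO mice lay close together, and the WT mice ran from far below them to far above. Its SD on the log2 scale was 0.11 in AKO and 0.69 in WT.

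Of the 4 tested members of the 2-5A synthetase family 3 were positive and 1 negative. Its active enzymes make a small oligoadenylate that switches on RNase L, which then cuts RNA. Oasl1, which in mice is known to hold back translation of Irf7, had 5.75, 5.6, 6.27 and 5.41 TPM in AKO and 3.43, 6.15, 1.93 and 2.52 TPM in WT. In this sum over rows the AKO mice were tightly grouped, 3 WT mice lay below them all, and WT mouse 3 stood among them (log2 difference 0.67, SE 0.25, limma adjusted p = 0.831). Oasl2 had 18.8, 16.68, 20.24 and 12.38 TPM in AKO and 13.66, 14.44, 9.78 and 10.34 TPM in WT. AKO mice 3, 8 and 9 were above all WT mice and AKO mouse 11 lay among the WT values (log2 difference 0.46, SE 0.18, limma adjusted p = 0.831). Oas1a had 9.41, 10.07, 13.4 and 6.31 TPM in AKO and 7.59, 9.12, 5.88 and 5.79 TPM in WT (log2 difference 0.395, limma adjusted p = 0.831), and 57.6% of its 50-base stretches also occur in other genes, mainly Oas1g, so its level is uncertain. Oas2 had 4.67 ± 0.519 TPM in AKO and 5.07 ± 1.05 in WT. Oas3 was low, from 0.69 to 1.27 TPM in AKO and from 0.56 to 1.11 in WT, and was not tested with the filter.

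Antiviral effectors included the only member without overlap. Mx1 encodes a dynamin-like GTPase against influenza and related viruses, and C57BL/6 is among the strains known to carry a defective copy of it. Mx1 had 3.78, 2.16, 4.12 and 2.29 TPM in AKO and 1.33, 1.94, 1.39 and 1.48 TPM in WT. AKO mice 3 and 9 were highest, and the lowest AKO mouse was just above the highest WT mouse (log2 difference 0.66, SE 0.19, limma adjusted p = 0.831, higher in 4 of 4 AKO mice). Its neighbour on chromosome 16, Mx2, had 1.56, 1.3, 0.72 and 1.18 TPM in AKO and 1.77, 2.43, 1.19 and 1.58 TPM in WT (log2 difference -0.32, limma adjusted p = 0.831), so the pair did not share a direction. Samhd1, which destroys the nucleotides that retroviruses need and is abundant in myeloid cells, had 109.22, 92.64, 108.77 and 73.27 TPM in AKO and 79.19, 83.72, 69.19 and 73.32 TPM in WT. AKO mice 3, 8 and 9 were above all WT mice and AKO mouse 11 was level with WT mouse 5 (log2 difference 0.31, SE 0.13, limma adjusted p = 0.831).

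The best known type I genes did not separate the groups. Isg15, a ubiquitin-like modifier, had 19.45, 24.5, 15.73 and 22.94 TPM in AKO and 17.75, 18.82, 23.52 and 21.73 TPM in WT. The ranges lay on top of each other, with a log2 difference of 0.003 (95% interval -0.34 to 0.34) that turned to -0.013 with median-ratio scaling. Ifit1, which binds viral RNA caps, had 4.22, 6.86, 4.13 and 4.6 TPM in AKO and 4.43, 3.57, 5.13 and 4.3 in WT, with AKO mouse 8 apart at the top (0.14). Its neighbours on chromosome 19, Ifit2 and Ifit3, had log2 differences of 0.18 and -0.08, and 51.2% of the 50-base stretches of Ifit3 also occur in Ifit3b. Bst2 (tetherin), which ties budding viruses to the cell, was the member with the highest level, at 141.3 ± 11.9 TPM in AKO and 130.1 ± 14.1 in WT (0.12). Rsad2 (viperin) had 9.60 ± 2.09 TPM in AKO and 8.87 ± 1.36 in WT, and Cmpk2, its neighbour on chromosome 12 and a mitochondrial nucleotide kinase, had 7.58 ± 1.67 and 7.90 ± 1.38.

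The remaining effectors overlapped between the groups. Eif2ak2 (PKR), the kinase that stops translation on double-stranded RNA, had 13.32 ± 0.449 TPM in AKO and 13.69 ± 1.76 in WT. Parp14, an ADP-ribosyltransferase, had 18.28 ± 0.98 TPM in AKO and 16.49 ± 0.883 in WT (log2 difference 0.14, limma adjusted p = 0.831). Trim30a, a TRIM family ubiquitin ligase, had 13.05 ± 1.62 and 11.55 ± 0.638 TPM (0.16, limma adjusted p = 0.831). Xaf1, known as a partner of the apoptosis inhibitor XIAP, had 27.76 ± 3.50 TPM in AKO and 29.36 ± 6.57 in WT, and Ifi44 had 2.08 ± 0.768 and 2.47 ± 0.549. Rtp4, a chaperone of membrane receptors, had 20.83 ± 2.59 and 20.44 ± 1.6 TPM, and 13.6% of its 50-base stretches also occur in another gene, Gm45338.

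**Figure D3:**
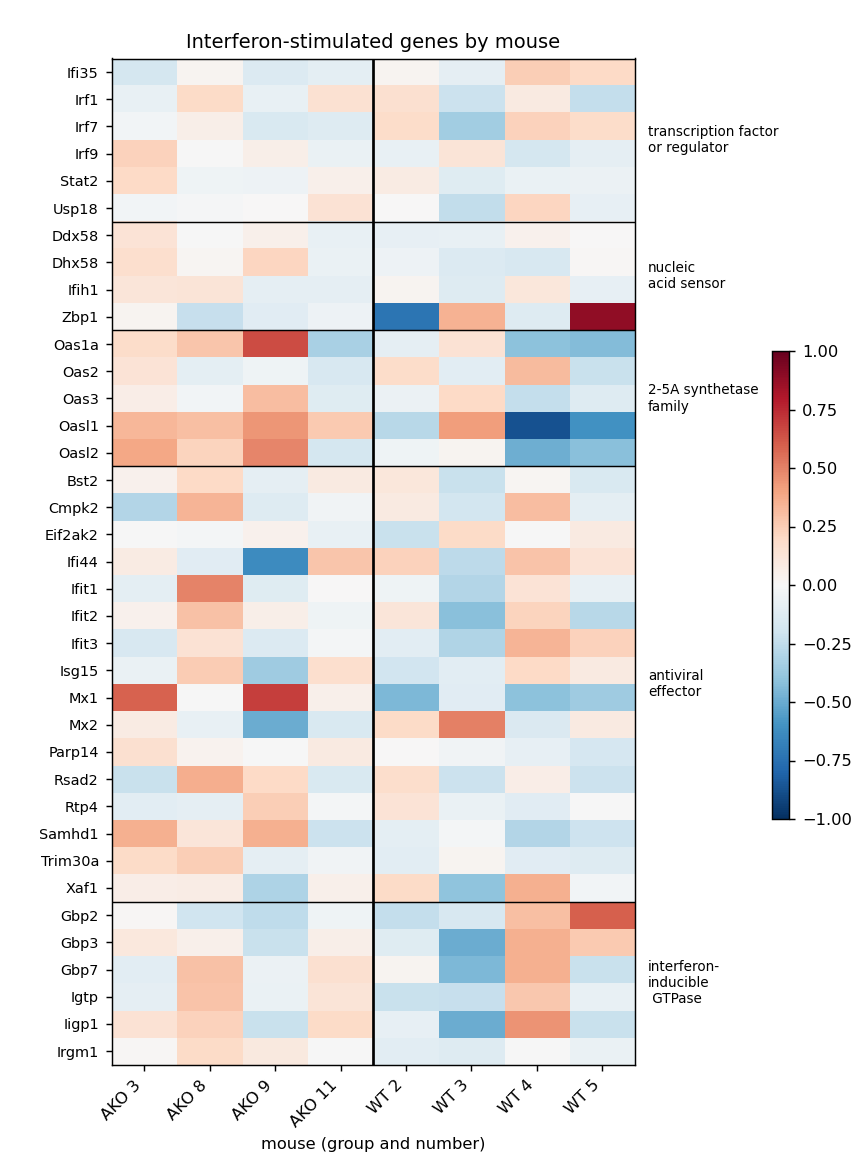
Each member's log2(TPM + 1) minus its mean over the 8 mice, with AKO mice left of the vertical line and WT mice right of it, genes grouped by role. Mx1, Oasl2 and Samhd1 are reddest in AKO mice 3 and 9, Oasl1 is red in all 4 AKO mice and in WT mouse 3, and 5 of the 6 GTPases have their lowest value in WT mouse 3 and their highest in WT mouse 4 or AKO mouse 8.

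**Figure D4:**
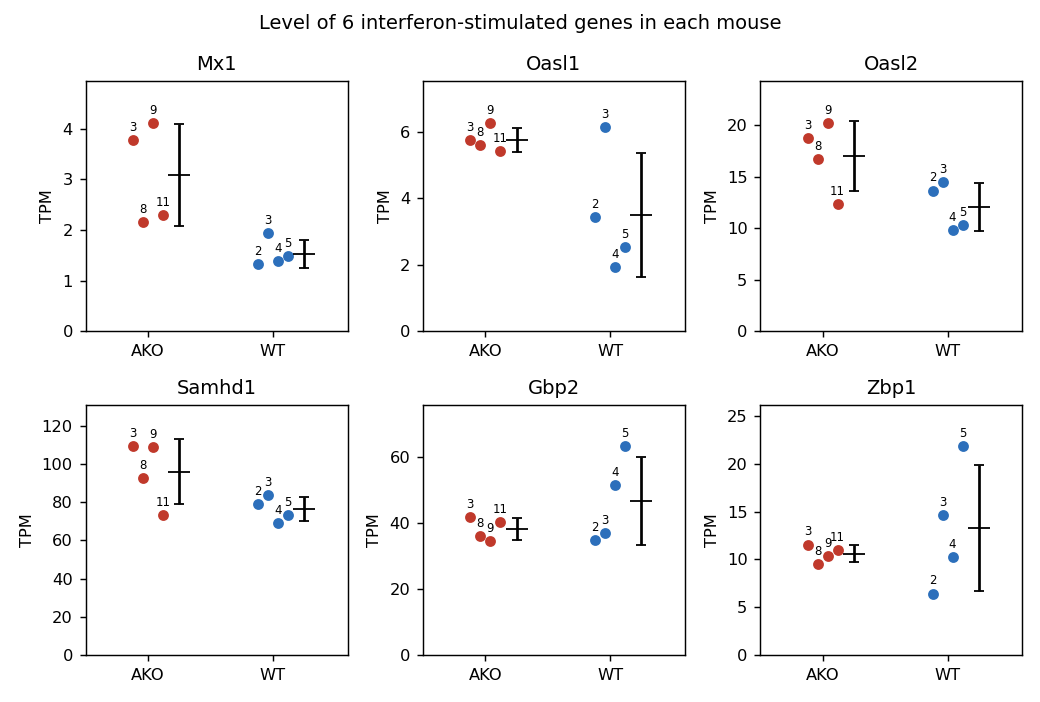
TPM of 6 members in each mouse (numbered points), with the group mean and SD beside them, AKO left and WT right, each axis from 0. Mx1 is the member without overlap, and Gbp2 and Zbp1 spread more widely in WT than in AKO.

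The gamma type GTPases guard against pathogens inside vacuoles, and none separated the groups. Gbp2, a guanylate-binding protein, had 41.88, 36.02, 34.63 and 40.27 TPM in AKO and 34.98, 37, 51.45 and 63.23 TPM in WT. WT mice 4 and 5 were above every AKO mouse, and WT mice 2 and 3 lay among the AKO values (log2 difference -0.25, SE 0.18, limma adjusted p = 0.831). The difference was -0.088 without WT mouse 5. Its neighbours on chromosome 3, Gbp3 and Gbp7, had 13.21 ± 1.40 and 11.94 ± 1.71 TPM in AKO, against 13.57 ± 3.72 and 10.89 ± 2.91 in WT. Irgm1, which regulates the other immunity-related GTPases and autophagy, had 19.29, 21.99, 20.55 and 19.0 TPM in AKO and 17.66, 17.37, 19.05 and 18.18 in WT. The groups touched only at AKO mouse 11 and WT mouse 4 (log2 difference 0.15, SE 0.08, limma adjusted p = 0.831). Igtp (Irgm3) had 13.24 ± 1.79 TPM in AKO and 12.08 ± 2.25 in WT, with 12.3% of its 50-base stretches shared, mainly with Irgm2, and Iigp1 (Irga6) had 14.51 ± 2.09 and 13.07 ± 4.07.

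Taken as a mean of log2(TPM + 1) over its 30 members, the type I type score was 3.68, 3.70, 3.63 and 3.57 in AKO mice 3, 8, 9 and 11, and 3.58, 3.54, 3.58 and 3.54 in WT mice 2, 3, 4 and 5. AKO mice 3, 8 and 9 were above all WT mice and AKO mouse 11 lay within the WT range, with group means of 3.65 ± 0.057 in AKO and 3.56 ± 0.023 in WT. Such a mean is moved by a few large single differences. Those of Oasl1 (0.67), Mx1 (0.66), Oasl2 (0.46), Oas1a (0.395) and Samhd1 (0.31) were far above the median of 0.05. Of the 29 tested type I type members 19 were positive and 10 negative, so the score does not describe the whole set. The gamma type score over 7 members was 4.27, 4.42, 4.16 and 4.37 in AKO, and 4.19, 3.96, 4.54 and 4.28 in WT. Here the WT mice held both the highest and the lowest value, with means of 4.31 ± 0.114 in AKO and 4.24 ± 0.236 in WT. Since the members were chosen with earlier results of these data known, no test is given for a score.

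The mice also differed among themselves in ways that crossed the groups. AKO mouse 8 had the highest value in 30.6% of the 36 tested members, against 8.26% of all genes tested, and WT mouse 3 the lowest in 38.9%, against 12%. In the gamma type, WT mouse 3 was lowest in 5 of 7 members and WT mouse 4 or AKO mouse 8 was highest in 6 of 7. AKO mouse 11 was neither highest nor lowest in any tested member. The SD on the log2 scale was larger in WT for 6 of 7 gamma type and 14 of 29 type I type members, against 68.0% of all genes tested. Its median over the gamma type was 0.15 in AKO and 0.35 in WT.

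Macrophage and fibroblast markers were higher in several of the mice with a higher 2-5A synthetase score. The type I type score followed another order. Of 12 macrophage markers 12 were positive with none called, and their summed level lay between 3706 and 6527 TPM in AKO and between 2294 and 5394 TPM in WT, with no marker at 0. Their score was 7.51, 7.22, 7.78 and 6.95 in AKO, and 6.92, 7.56, 6.14 and 6.90 in WT. The 2-5A synthetase score was 2.81, 2.73, 2.96 and 2.49 in AKO, and 2.53, 2.73, 2.25 and 2.23 in WT. In both, AKO mouse 9 was highest, AKO mouse 3 and WT mouse 3 came next, and WT mice 4 and 5 were lowest. Of 10 markers of lipid-associated macrophages 9 were positive and 3 had an unadjusted limma p below 0.05, all higher in AKO. That is 30% of 10, against 2.58% of all genes tested. Their summed level was 7821 to 11980 TPM in AKO and 5321 to 10360 TPM in WT, with no marker at 0. Much of it came from Lpl, the negative marker, with 3912 ± 251 TPM in AKO and 4142 ± 488 in WT. Of 6 fibroblast markers 6 were positive and 1 (Dcn) had an unadjusted limma p below 0.05, higher in AKO. That 1 gene is 16.7% of 6, against 2.58% of all genes tested. Their summed level was 1621 to 2382 TPM in AKO and 1272 to 2283 TPM in WT, with no marker at 0. The fibroblast score was 6.89, 6.63, 6.67 and 6.28 in AKO, and 6.32, 6.64, 6.08 and 6.35 in WT. AKO mouse 11 lay within the WT range here, as in the type I type, gamma type, macrophage and adipocyte scores. Every AKO mouse lay within the WT range of the gamma type score. AKO mice 3 and 8 also lay within the WT ranges of the macrophage and adipocyte scores. AKO mouse 8, highest in the type I type score, lay within the WT range of the fibroblast and macrophage scores. WT mouse 3 was the highest WT mouse for fibroblasts and macrophages. It had only 3.54 in the type I type score and the lowest gamma type score, 3.96. The part of macrophages and fibroblasts in the higher values of Oasl1, Oasl2, Samhd1 and Mx1 was not tested.

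Adipocyte markers ran the other way. Of 10 markers 9 were negative and 1 (Plin1) had an unadjusted limma p below 0.05, lower in AKO, as had 2.17% of all genes tested. Their summed level was 30110 to 42060 TPM in AKO and 28540 to 44820 TPM in WT, with no marker at 0. Most of it came from Fabp4, the positive marker, with 22240 ± 3680 TPM in AKO and 21630 ± 4460 in WT. Their score was 10.2, 10.7, 10.05 and 10.6 in AKO, and 10.7, 10.1, 11.1 and 10.8 in WT. WT mouse 4 was highest in this score and in the gamma type score, and WT mouse 3 and AKO mouse 9 were the lowest 2 in both. Endothelial markers, of which 1 of 6 was positive, had a summed level of 353.1 to 470.5 TPM in AKO and 307.3 to 534.7 TPM in WT, with no marker at 0. Their score was 5.70, 5.99, 5.55 and 5.77 in AKO, and 6.17, 5.36, 6.09 and 5.69 in WT. WT mouse 3 and AKO mouse 9 were the lowest 2 here as well, while WT mouse 2 was highest. The part of fat cells and endothelial cells in the gamma type values was not tested.

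**Figure D5:**
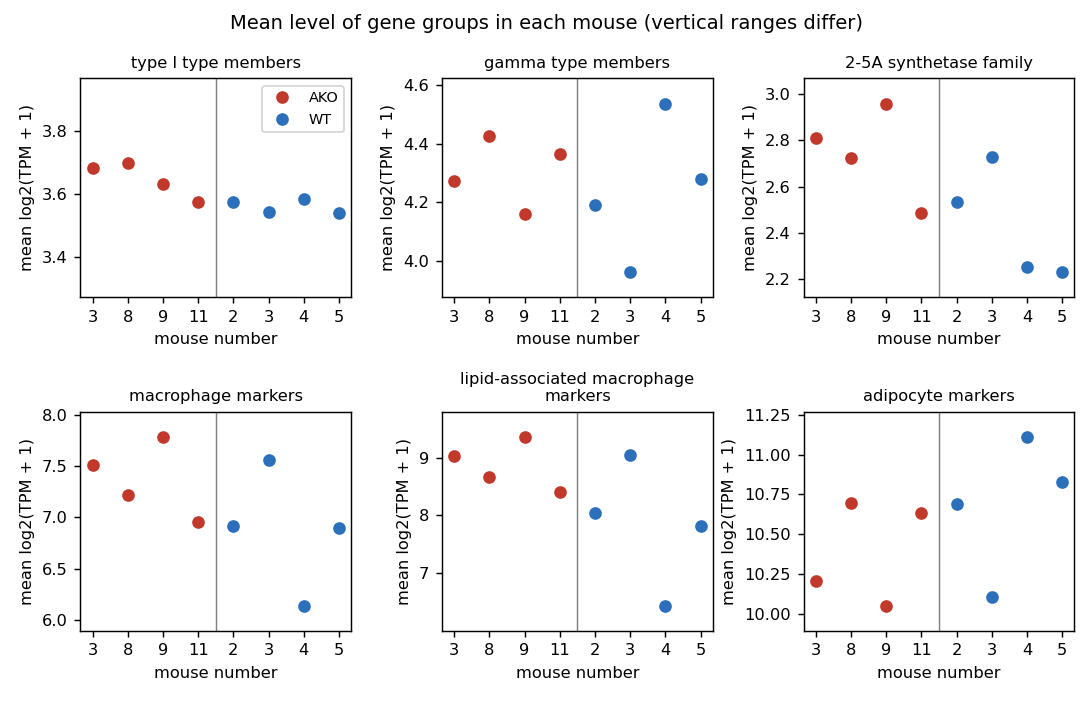
Mean log2(TPM + 1) of 3 groups of members and of 3 marker lists in each mouse, AKO mice (red) left of the line and WT mice (blue) right of it, with vertical ranges that differ between panels. AKO mouse 9 is highest in the 2-5A synthetase family and in both macrophage lists, and WT mouse 4 is highest in the gamma type and in the adipocyte markers.

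Markers of other cell types known to make or answer interferon were lower in level. Of 12 T and NK cell markers 8 were tested and 8 were positive, with a summed level of 24.87 to 56.99 TPM in AKO and 19.9 to 37.89 TPM in WT, and their score was highest in AKO mouse 8. Siglech, which defines plasmacytoid dendritic cells, the main makers of interferon alpha, lay between 0.36 and 0.67 TPM in AKO and between 0.43 and 0.58 in WT. Over the 6 plasmacytoid markers, 2 were tested and the summed level was 51.3 to 63.3 TPM in AKO and 45.5 to 64.2 TPM in WT, most of it from Tcf4, which other cells use too. Of the 6 B and plasma cell markers 4 were tested, 4 were positive and 3 had an unadjusted limma p below 0.05, all higher in AKO. That is 75% of the 4 tested, against 2.58% of all genes tested. Their summed level was 34.97 to 84.4 TPM in AKO and 8.44 to 40.5 TPM in WT. Jchain alone had 43.38 ± 20.7 TPM in AKO and 15.32 ± 11.9 in WT. The part of these cells in the members' values was not tested. Of the 6 conventional dendritic cell markers 5 were tested, 4 were positive and 1 (Ccr7) had an unadjusted limma p below 0.05, higher in AKO. That is 20% of 5, against 2.58% of all genes tested. Their summed level was 19.33 to 23.86 TPM in AKO and 20.03 to 28.26 TPM in WT. Cd209a, the negative marker, had 7.645 ± 1.72 TPM in AKO and 10.76 ± 4.25 in WT. Their score was 1.96 ± 0.081 in AKO and 1.88 ± 0.071 in WT.

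The interferon genes themselves were barely seen, while their receptors were present in both groups. Of 21 ligand genes, 17 were listed at 0 in every library, Ifnb1 among them, and the highest single value was 0.98 TPM. That was Ifng in AKO mouse 9. Ifng had 0.35, 0.19, 0.98 and 0.05 TPM in AKO and 0, 0.12, 0.56 and 0.59 in WT. The receptor gene Ifnar1 had 38.69 ± 4.88 TPM in AKO and 33.71 ± 4.54 in WT, Ifngr1 176.5 ± 15.8 and 188.6 ± 28.1, and Ifngr2 28.65 ± 5.42 and 24.54 ± 6.21. Il10rb, a chain of the interferon lambda and IL-10 receptors, had 76.2 ± 20.5 TPM in AKO and 57.41 ± 16.6 in WT (log2 difference 0.41, limma adjusted p = 0.831). None of the 5 tested genes of this list passed, and 0 had an unadjusted limma p below 0.05.

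In the kinase, STAT and feedback genes 8 of 12 tested were positive and 4 negative. Ptpn11, which encodes the phosphatase SHP2, had 73.55, 76.68, 69.2 and 78.87 TPM in AKO and 85.25, 79.59, 84.44 and 87.98 in WT, so each AKO mouse was below each WT mouse, as in 1.33% of all genes tested (log2 difference -0.18, SE 0.07, limma adjusted p = 0.831). Ptpn6, the related SHP1 of blood cells, had 41.36 ± 10.7 and 28.9 ± 12.6 TPM, Irf2 32.38 ± 5.07 and 27.14 ± 4.90, and the feedback inhibitor Socs3 6.67 ± 0.933 and 5.35 ± 1.74, AKO before WT. Of 19 sensing genes 16 were positive and 0 had an unadjusted limma p below 0.05. The RNA sensor Tlr8 had 48.36 ± 16.2 TPM in AKO and 29.95 ± 15.8 in WT (log2 difference 0.75, limma adjusted p = 0.831), and Irf5, a factor of myeloid cells, had 56.97 ± 17.6 and 39.71 ± 17.7. The nuclease Trex1 had 24.51 ± 4.53 and 19.84 ± 4.34 TPM, and the kinase Ikbke 14.5 ± 3.90 and 11.05 ± 3.89.

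Further interferon targets lie outside the 37. Of 43 tested type I genes 27 were positive and 16 negative, with a median log2 difference of 0.06, and 3 had an unadjusted limma p below 0.05, all higher in AKO. That is 6.98% of 43, against 2.58% of all genes tested. Epsti1 had 14.27, 16.55, 14.31 and 10.58 TPM in AKO and 9.15, 11.59, 8.85 and 10.32 in WT (log2 difference 0.43, SE 0.14, limma adjusted p = 0.831), and AKO mouse 11 alone was inside the WT range. Ifi204, a DNA sensor of the PYHIN family, had 32.61 ± 4.06 TPM in AKO and 26.38 ± 2.97 in WT, and Slfn8 had 6.82 ± 1.26 and 5.09 ± 0.802. Parp10, an ADP-ribosyltransferase, had 16.5 ± 0.367 and 14.86 ± 0.89 TPM without overlap, as AKO was above WT in 1.11% of all genes tested (limma adjusted p = 0.831). Of 24 tested gamma genes 18 were positive, which is 75%, against 53.8% of all genes tested, with a median of 0.09. An unadjusted limma p below 0.05 was found for 2 of them, 1 higher and 1 lower in AKO. The 1 higher is 4.17% of 24, against 2.58% of all genes tested, and 2.17% of all genes were lower. The GTPase Ifi47 had 12.95 ± 1.48 TPM in AKO and 10.27 ± 1.26 in WT (0.31, limma adjusted p = 0.831), while Cxcl10, a chemokine that draws T cells, had 5.003 ± 1.03 and 6.55 ± 0.739 (-0.34, limma adjusted p = 0.831). Cd274 (PD-L1) had 11.68 ± 1.24 and 9.21 ± 1.90 TPM, and Gbp10 2.42 ± 0.337 and 1.73 ± 0.556. No gene of these lists passed an FDR of 0.05, and the smallest FDR was 0.831.

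The sums per gene rest on transcript rows that are not named in the tables. The 37 members have 198 rows, from 1 to 13 each, of which 26 were at 0 in every library, and 19 members had more than 80% of their level in 1 row. Tested singly with limma, 0 of 72 member rows passed an FDR of 0.05, against 0.021% of 33323 rows, and 4 had an unadjusted p below 0.05, 5.56% of them, against 5.56% of all rows. No row of Mx1 passed the filter on its own. Mx1 row 5 had 1.11, 1.65, 0.52 and 1.15 TPM in AKO and 0.61, 0.40, 0.71 and 0.77 in WT, and its row 8 had 1.85, 0, 2.58 and 0 in AKO and 0.39, 1.23, 0 and 0 in WT. AKO mice 3 and 9 were thus highest through row 8, which was listed at 0 in AKO mice 8 and 11. Samhd1 row 9 had 10.74, 5.93, 12.24 and 8.12 TPM in AKO and 4.02, 5.94, 2.18 and 6.03 in WT, and its rows 5 and 11 likewise had an unadjusted limma p below 0.05 with higher values in AKO. Xaf1 row 6 had 4.19 ± 2.37 TPM in AKO and 7.19 ± 1.72 in WT, while the gene total differed by -0.06 on the log2 scale. Oasl1 row 2, with 92.6% of its level, had 5.46, 4.32, 6.01 and 4.49 TPM in AKO and 3.43, 6.15, 1.93 and 2.52 in WT. WT mouse 3 was highest in this row (log2 difference 0.50, limma adjusted p = 0.838). The other rows of Oasl1 were listed at 0 in every WT mouse.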

How the data were processed

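For each mouse the authors deposited TPM values in 152298 rows under gene identifiers that repeat, and each table sums to 1000000 within rounding. The submitters' processing notes name HISAT2, DESeq2 and mm9, with no role stated. The sources used here do not say what made the TPM or on which annotation. Rows were summed per gene identifier, and symbols and chromosomes came from GENCODE M21. The 401 rows without a gene, 0.605% to 0.943% of TPM, were left out. Depth cannot be read from TPM.

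The 14172 genes that reached 1 TPM in 4 or more libraries were fitted with limma (version 3.58.1, R 4.3.3, mean-variance trend) on log2(TPM + 1), all 8 libraries, no covariates, with Benjamini-Hochberg adjustment over all genes. Log2 differences are AKO minus WT and understate changes of low genes. The script was tested on simulated data. The labels give separate mice, and p-values cover the spread between them. Sharing between genes was measured as 50-base stretches of a member's longest M21 transcript found in another gene's transcripts, and strand use in counting is not given. Named genes were all members and, from each other interferon list, up to 4 with the smallest p. The members and lists, and the tests and alternatives, were chosen with earlier results of these data known. Alternatives were another pseudocount, no filter, 1 row per gene, median-ratio scaling, a robust spread and leaving out each mouse.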

Additional observations from a re-analysis of the deposited data

Results flagged for a closer look

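Each member and both scores were checked for a mouse standing apart in its group of 4, by the gap to the nearest other mouse over the group's range. Of 78 groups checked 4 had such a mouse, 5.13%, where chance gives about 1 in 20. Irf7 was 14.29 TPM in WT mouse 3, against 21.09 to 21.87 in the other WT mice. Xaf1 was 22.51 TPM in AKO mouse 9, against 29.21 to 29.69 in the other AKO mice. Usp18 was 5.51 TPM in AKO mouse 11, against 4.79 to 4.90 in the other AKO mice. Trim30a was 12.5 TPM in WT mouse 3, against 11.13 to 11.31 in the other WT mice.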

How the results depend on the processing

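No member passed an FDR of 0.05 under a pseudocount of 0.1, no filter, the row with the highest mean per gene, median-ratio scaling, a robust spread, leaving out each mouse, or (added after seeing the data) rows tested singly. With limma the lowest FDR of a member in any gene-level setting was 0.287. The count of members with an unadjusted p below 0.05 was 4 as reported, 5 with no filter, and 0 with the highest row, where Mx1 was not tested. It was 1 without AKO mouse 3, AKO mouse 9 or WT mouse 5, 2 without AKO mouse 8 or WT mouse 4, 3 without WT mouse 2, 5 without AKO mouse 11 and 6 without WT mouse 3.

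The log2 differences of Mx1, Oasl1, Oasl2 and Samhd1 were positive in every setting that tested them, from 0.54 to 0.78, 0.49 to 0.92, 0.38 to 0.60 and 0.24 to 0.43 with a mouse left out. Leaving out 1 mouse gave 15 to 22 positive type I type members (15 without AKO mouse 8) and 5 or 6 gamma type members, with medians of 0.037 to 0.076 and 0.036 to 0.177. The gamma type median was 0.036 without WT mouse 3 and 0.054 without AKO mouse 8.

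Of 36 tested members 22 kept their direction in every setting and 14 did not. Ddx58 was -0.075 and Xaf1 0.39 with the highest row, and Isg15 was -0.013 with median-ratio scaling. With a mouse left out the direction turned for Cmpk2 (-0.18 to 0.034), Eif2ak2 (-0.11 to 0.03), Gbp3 (-0.17 to 0.11), Ifih1 (-0.003 to 0.078), Ifit1 (-0.004 to 0.20), Ifit3 (-0.20 to 0.016), Isg15 (-0.082 to 0.12), Oas2 (-0.17 to 0.005), Rsad2 (-0.014 to 0.18), Rtp4 (-0.058 to 0.07), Usp18 (-0.018 to 0.13), Xaf1 (-0.20 to 0.049) and Zbp1 (-0.46 to 0.08). The causes were not tested. With no filter Oas3 was fitted too, at 0.11 (FDR = 0.835). No paired analysis was possible because the groups share only number 3, on different mice. TPM keeps no depth, so what depth limits is unknown.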
